A study of Mus musculus with 12 samples.

Results

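The endoplasmic reticulum (ER) genes described here are 35 genes for the folding, quality control and degradation of proteins in the ER and for the unfolded protein response. They were listed by name and function, with earlier results of these data known, and all 35 were found among the 28689 genes of the deposited FPKM table, in which the fragments of a gene are divided by its length and by the size of the library. The study compared mouse lung endothelial cells (MLECs) of dKO mice, VE-CAD-CreERT2+/Sp1 fl/fl/Sp3 fl/fl, with MLECs of CTR mice, the Cre-negative Sp1 fl/fl/Sp3 fl/fl littermates. Both groups received tamoxifen, and 6 libraries were sequenced per group. The labels give no age, and the summary of animals gives male mice of 6 to 8 weeks. The CTR mice are WT in the labels and floxed in the methods. Cre was driven by the VE-cadherin promoter, so cells in the culture that do not use this promoter would keep Sp1 and Sp3. MLECs were selected with beads against CD31 and then against intercellular adhesion molecule 2 and were cultured for up to 3 passages, and nothing says how many mice gave a library. The p-values therefore measure the spread between these libraries.

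Proteins that enter the ER are folded by chaperones, lectins and disulfide isomerases, and proteins that fail to fold are returned to the cytosol and degraded. A load of unfolded protein activates the sensors ATF6, IRE1 (gene Ern1) and PERK (gene Eif2ak3). ATF6 is cut in the Golgi to release a transcription factor that raises ER chaperones, IRE1 splices Xbp1 mRNA to give a factor that raises co-chaperones and degradation genes, and PERK phosphorylates eIF2α, which lowers translation and raises ATF4. ATF4 is also raised by shortage of amino acids, without the ER, and drives genes for amino-acid transport and synthesis. In endothelial cells this machinery folds secreted and membrane proteins such as von Willebrand factor and adhesion receptors. Members were placed in an ATF6 arm (12 genes) and an XBP1 arm (11 genes) from textbook knowledge, and in cells these arms overlap.

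Sp1 and Sp3 were examined first. Sp1 lay between 19.4 and 23.7 FPKM in CTR MLECs (median 20.7) and between 8.42 and 12.1 FPKM in dKO MLECs (median 11). Its log2 fold change was −0.95 (standard error 0.09, limma adjusted p = 5.7e-06), and the highest dKO library was under the lowest CTR library (exact permutation test, two-sided, p = 0.00216, the smallest that 6 against 6 allow). Sp3 lay between 24.2 and 31.1 FPKM in CTR and between 22.5 and 26.9 FPKM in dKO MLECs, and its log2 fold change of −0.14 (standard error 0.07) did not pass the test (limma adjusted p = 0.09, exact permutation p = 0.0455, not adjusted). The FPKM fall of Sp3 mRNA was thus not established here, and the position of the loxP sites relative to the measured exons was not examined. The study reported by immunofluorescence that Sp1 and Sp3 protein was lower in the aortic endothelium of dKO mice, a measure of protein in another tissue. It also lists Sp1 and Sp3 in a western blot of isolated endothelial cells of CTR and dKO mice. The legend calls these cells aortic and the main text calls them MLECs, and the result for Sp1 and Sp3 is not put in words. Libraries held between 15523054 and 17938286 fragments on genes, so that a gene 2 kb long gained 0.0279 to 0.0322 FPKM with each fragment.

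Among all 12467 genes tested, 20.4% were higher and 32.6% were lower in dKO MLECs at an adjusted p under 0.05, and the calls of markers stand beside these shares. All 12 endothelial markers, such as Pecam1 and Cdh5, were expressed, and 11 of them were higher in dKO MLECs. Their summed level lay between 212 and 345 FPKM in CTR and between 389 and 525 FPKM in dKO libraries. Markers of other cell types were also expressed. Macrophage markers summed to between 840 and 1402 FPKM in CTR and to between 2428 and 5395 FPKM in dKO libraries, and 11 of these 12 were higher in dKO MLECs and 1, Marco, was lower. Fibroblast markers summed to between 2166 and 2739 FPKM in CTR and to between 865 and 1690 FPKM in dKO libraries. Of 9 fibroblast markers tested, 4 were lower, among them the collagens Col1a1, Col1a2 and Col3a1 that make up most of this sum, 1, Dcn, was higher, and the other 4 were not called. Mesothelial markers summed to between 29.5 and 39.7 FPKM in CTR and to between 66.8 and 147 FPKM in dKO libraries, and 5 of 6 tested were higher. Leukocyte markers summed to between 3.43 and 5.31 FPKM in CTR and to between 7.97 and 15 FPKM in dKO libraries. Only 3 of these 10 markers were tested: Ptprc and Coro1a were higher, and Itgal was not called (log2 fold change 0.10, limma adjusted p = 0.57). Cd3e, Cd8a, Ms4a1 and Nkg7 stayed under 1 FPKM in each library, and Cd4 reached 0.15 FPKM in CTR and 1.81 FPKM in dKO libraries. The sums of further lists overlapped between the groups. They were 475 to 1448 FPKM in CTR and 419 to 868 FPKM in dKO libraries for smooth muscle. For lung epithelium they were 96.1 to 541 and 162 to 383 FPKM, and for pericytes 74.4 to 109 and 52.2 to 104 FPKM. Proliferation markers summed to 79.2 to 232 and 83.4 to 114 FPKM, and of these 8 markers 4 were lower and 0 higher. Of 10 markers of plasma cells, which carry much ER, 6 stayed under 1 FPKM in each library. The 10 summed to between 23.7 and 36.3 FPKM in CTR and to between 24.7 and 38.3 FPKM in dKO libraries. Most of this sum was Sdc1, the only 1 tested, which was not called (log2 fold change −0.23, limma adjusted p = 0.13). Jchain, Igkc and Ighm were nevertheless higher in each dKO library than in each CTR library: Jchain was read from at most 2 fragments in CTR and from 5 to 17 in dKO libraries, Igkc from at most 2 and from 4 to 82, and Ighm reached 0.0941 FPKM in CTR and lay between 0.171 and 1.53 FPKM in dKO libraries. The other plasma cell markers overlapped between the groups. All these markers were read in the same libraries as the genes described next, and their part in those results was not tested. In such bulk RNA, fewer cells of a type and less RNA per cell cannot be told apart.

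In dKO MLECs the lectin Calr, the disulfide isomerases Pdia3 and Pdia4 and the chaperone partners Sdf2l1 and Manf rose, while Atf6, both eIF2α phosphatase subunits and the retrotranslocation gene Derl1 fell. Of 34 members tested, 15 (44.1%) were higher and 7 were lower in dKO MLECs at an adjusted p under 0.05, against 20.4% higher and 32.6% lower among all 12467 genes tested. With median-of-ratios scaling the members again gave 15 higher and 7 lower, and all tested genes gave 25.8% higher and 24.2% lower. All 6 dKO libraries lay above all 6 CTR libraries for 13 members (11.3% of all tested genes) and below them for 4 members (16.1% of all tested genes). The median log2 fold change was 0.19 over the members and −0.10 over all tested genes. Because 1 was added to each FPKM before taking log2, the fold of a low gene is understated. The fold threshold of the study, an absolute log2 fold change over 1.5, was passed by 1 member, Sdf2l1, against 1.43% of all tested genes on the higher side. This threshold is the one in the main text and methods of the study, whereas the legend of its heatmap gives a change over 1.5-fold. It was applied here to log2(FPKM + 1), not to the authors' own fold changes. The member that was not tested, Derl3, was under 1 FPKM in 10 of 12 libraries.

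**Figure D1:**
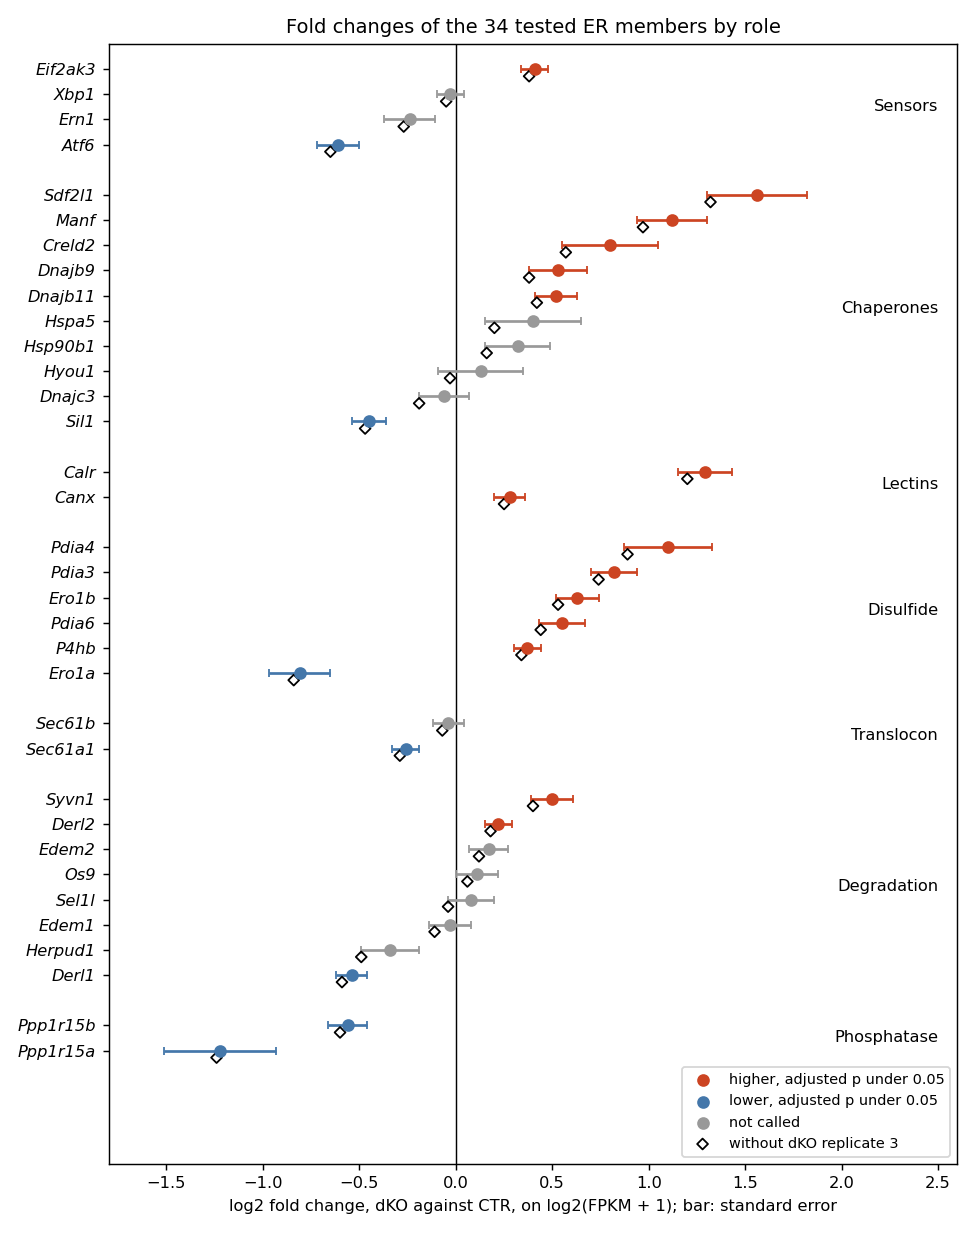
Log2 fold change (dKO against CTR, on log2(FPKM + 1)) of the 34 tested ER members, grouped by role, with bars for the standard error; red and blue mark an adjusted p under 0.05, and open diamonds give the value without dKO replicate 3. Disulfide and lectin genes lie right of 0 except Ero1a, both phosphatase genes lie left of 0, and sensors lie on both sides.

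Short promoter sequences are shown here because 9 of the 34 tested members hold the same element. The members were listed by name and function, without reading promoters, but as genes of the unfolded protein response. Their share of carriers is therefore not independent of that choice. The ER stress element, which ATF6 binds together with the CCAAT-binding factor NF-Y, is CCAAT and CCACG separated by 9 bases. It was searched on both strands from 250 bases before to 50 bases after the annotated start of each tested protein-coding gene in GRCm39. It was present, with no mismatch, in 13 of 11315 promoters (0.115%). Of these 13 genes, 9 were members, which is 9 of the 34 tested members (26.5%). The stretches below run along the strand of each gene, and capitals mark the constant letters of the element, or their complement where the element lies on the other strand. The first 6 genes were higher in dKO MLECs and the last 3 were not called.
Calr, chr8:85573699-85573727, minus strand: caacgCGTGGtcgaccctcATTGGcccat
Pdia6, chr12:17316487-17316515, plus strand: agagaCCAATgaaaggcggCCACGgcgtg
Syvn1, chr19:6096557-6096585, plus strand: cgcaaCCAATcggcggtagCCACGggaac
Creld2, chr15:88703718-88703746, plus strand: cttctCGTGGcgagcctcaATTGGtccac
Ero1b, chr13:12580558-12580586, plus strand: ggcctCGTGGtcccgcctcATTGGccgcc
Canx, chr11:50216622-50216650, minus strand: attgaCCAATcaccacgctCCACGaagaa
Hspa5, chr2:34662032-34662060, plus strand: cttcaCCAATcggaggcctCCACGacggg
Hsp90b1, chr10:86541392-86541420, minus strand: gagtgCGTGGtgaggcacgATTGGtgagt
Dnajc3, chr14:119175234-119175262, plus strand: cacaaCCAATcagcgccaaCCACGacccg

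These elements ended between 19 bases (Hsp90b1, which holds a second element further from its start) and 135 bases (Ero1b) before the annotated start. The element was thus present in the promoters of 6 of 15 members called higher, 0 of 7 called lower and 3 of 12 not called. The other 4 of the 13 genes gave 0 higher and 3 lower, against 20.4% higher and 32.6% lower among all tested genes. Those lower were Hnrnpa3 (log2 fold change −0.87), Pan2 (−0.77) and Zfp57 (−0.47), while Alg12 (−0.06) was not called. ER stress element II, ATTGG and CCACG separated by any 1 base, was present in 12 of 11315 promoters (0.106%), and 4 of these were members: Manf, Herpud1, Hyou1 and Dnajb11. Of these members 2 were higher and 0 lower, and of the 8 other genes 1 was higher and 5 were lower, beside the same shares of all tested genes. Carriers of either element are few, and the calls of members and other genes among them were not compared by a test. It is shown for Manf, which was higher, and for Herpud1, which was not called over all libraries.
Manf, chr9:106769233-106769253, minus strand: gggcaCGTGGaCCAATgagga
Herpud1, chr8:95113000-95113020, plus strand: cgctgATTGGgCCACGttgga

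Pdia4 and Sdf2l1, which rose strongly, held neither of these exact spellings in the window. The core of the XBP1 site, TGACGTG, was present in 2 of 34 member promoters, Hspa5 and Hyou1, and in 2.55% of all those searched. GGGCGG, the GC box that Sp1 and Sp3 bind, was present in 23 of 34 member promoters (67.6%) and in 59.6% of all. By call, the GC box was present in 11 of 15 members called higher, 3 of 7 called lower and 9 of 12 not called. Matches overlap between motifs, since an ER stress element also counts as a CCAAT box. A match describes the letters of the window, and binding was not measured.

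The sensors moved in different directions. Atf6 (ENSMUSG00000026663, chromosome 1 from 170532026 to 170696208, minus strand), the sensor that becomes a transcription factor, lay between 19.2 and 30.7 FPKM in CTR MLECs (median 22.3) and between 11.9 and 16.6 FPKM in dKO MLECs (median 14.6). Each dKO library was thus below each CTR library, and the log2 fold change was −0.61 (standard error 0.11, limma adjusted p = 0.00047). The proteases that cut ATF6 in the Golgi, Mbtps1 and Mbtps2, were also lower, with log2 fold changes of −0.42 and −0.35 (limma adjusted p = 0.0033 and 0.0043), and for both the groups overlapped; these 2 genes were picked after their values were seen. Atf6b, the close relative of Atf6 and likewise picked, changed by −0.23 (limma adjusted p = 0.013) and by −0.14 with median-of-ratios scaling, where it did not pass the test (adjusted p = 0.13).

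Eif2ak3, which encodes PERK, moved the other way. It lay between 3.63 and 5.17 FPKM in CTR (median 4.41) and between 5.56 and 7.04 FPKM in dKO libraries (median 6.11), without overlap, and its log2 fold change was 0.41 (standard error 0.07, limma adjusted p = 0.00054). Ern1, which encodes IRE1, lay between 9.44 and 14.0 FPKM in CTR and between 7.63 and 13.5 FPKM in dKO MLECs, and its log2 fold change of −0.24 (standard error 0.13) did not pass the test (limma adjusted p = 0.13). Xbp1, the target of IRE1, lay between 63.3 and 74.5 FPKM in CTR and between 57.9 and 72.6 FPKM in dKO MLECs, and changed by −0.03 on the log2 scale (standard error 0.07, limma adjusted p = 0.76). The table gives a single value per gene, so spliced and unspliced Xbp1 were not told apart.

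Calr (ENSMUSG00000003814, chromosome 8 from 85567946 to 85573667, minus strand) encodes calreticulin, the soluble lectin that holds glycoproteins with trimmed sugars for folding and binds calcium. Calr lay between 164 and 269 FPKM in CTR (median 195) and between 417 and 645 FPKM in dKO MLECs (median 470). The lowest dKO library was above the highest CTR library, and the log2 fold change was 1.29 (standard error 0.14, limma adjusted p = 1.2e-05). Canx, which encodes calnexin, the membrane-bound lectin of the same cycle, lay between 115 and 156 FPKM in CTR and between 151 and 183 FPKM in dKO libraries. Its rise was smaller, at 0.28 on the log2 scale (standard error 0.08, limma adjusted p = 0.0074), and 5 of 6 dKO libraries were above all CTR libraries. With quantile normalization it was 0.11 and the call was lost (adjusted p = 0.24). The ratio of Calr to Canx FPKM within a library lay between 1.14 and 1.98 in CTR and between 2.64 and 3.52 in dKO MLECs. By mean FPKM, P4hb was the highest member in CTR MLECs, at 315 ± 24.9 (SD, n = 6), and Calr was the highest in dKO MLECs, at 490 ± 87.8 (SD, n = 6).

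Of the 6 disulfide genes, 5 rose and 1 fell, against 20.4% higher and 32.6% lower among all tested genes. Pdia4 (ENSMUSG00000025823, chromosome 6 from 47770077 to 47790462, minus strand), an isomerase of the chaperone complex around BiP, lay between 45.3 and 73.2 FPKM in CTR (median 52.4) and between 86.9 and 244 FPKM in dKO MLECs (median 97.5). The groups did not overlap, and the log2 fold change was 1.10 (standard error 0.23, limma adjusted p = 0.0014). Pdia3, the isomerase that works with calreticulin and calnexin, lay between 139 and 214 FPKM in CTR (median 176) and between 274 and 412 FPKM in dKO MLECs (median 295), and its log2 fold change was 0.82 (standard error 0.12, limma adjusted p = 0.00013). Pdia6, which also attenuates IRE1, changed by 0.55 and P4hb, the isomerase that is also a subunit of collagen prolyl hydroxylase, changed by 0.37, both without overlap between the groups (limma adjusted p = 0.0026 and 0.00079).

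The oxidases that recharge these isomerases moved apart. Ero1b lay between 1.90 and 2.56 FPKM in CTR and between 3.45 and 6.29 FPKM in dKO libraries, with no overlap and a log2 fold change of 0.63 (standard error 0.11, limma adjusted p = 0.00057). Ero1a, which is also raised by low oxygen and by CHOP, lay between 26.1 and 49.4 FPKM in CTR and between 16.1 and 27.8 FPKM in dKO libraries. Its log2 fold change was −0.81 (standard error 0.16, limma adjusted p = 0.001), and 5 of 6 dKO libraries were below all CTR libraries. Ero1a remained the more abundant of the pair per length in each library: the ratio of Ero1b to Ero1a lay between 0.0384 and 0.093 in CTR and between 0.139 and 0.289 in dKO MLECs.

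Of the 10 chaperones and their partners, 5 rose and 1 fell, against 20.4% higher and 32.6% lower among all tested genes. Sdf2l1 (ENSMUSG00000022769, chromosome 16 from 16948002 to 16950252, minus strand), a partner of the BiP co-chaperones Dnajb9 and Dnajb11, had the largest log2 fold change of the 34 tested members. It lay between 11.1 and 20.4 FPKM in CTR (median 13.6) and between 29.5 and 98.9 FPKM in dKO MLECs (median 37.5). No library overlapped, and the log2 fold change was 1.56 (standard error 0.26, limma adjusted p = 0.0003), or 1.32 without dKO replicate 3, which is below the fold threshold of the study. Manf (ENSMUSG00000032575, chromosome 9 from 106715511 to 106769727, minus strand), a secreted factor that binds BiP, lay between 7.91 and 12.3 FPKM in CTR (median 9.12) and between 15.5 and 36.4 FPKM in dKO MLECs (median 20), and its log2 fold change was 1.12 (standard error 0.18, limma adjusted p = 0.00021). The annotation lets Manf share 3962 exon bases with Rbm15b on its own strand, and Rbm15b lay between 8.46 and 9.16 FPKM in CTR and between 9.20 and 10.4 FPKM in dKO libraries. Each dKO library was thus above each CTR library, and its log2 fold change of 0.12 did not pass the test (limma adjusted p = 0.057). The part of the shared bases in the value of Manf was not tested.

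Creld2, a small ER protein of the ATF6 response, lay between 14.3 and 22.7 FPKM in CTR and between 20.9 and 68.7 FPKM in dKO libraries, and 4 of 6 dKO libraries were above all CTR libraries (log2 fold change 0.80, standard error 0.25, limma adjusted p = 0.016). The J-domain proteins Dnajb9 and Dnajb11, which hand unfolded clients to BiP, rose without overlap, by 0.53 and 0.52 on the log2 scale (limma adjusted p = 0.01 and 0.0018). Sil1, the nucleotide exchange factor of BiP, fell by 0.45 on the log2 scale (limma adjusted p = 0.0012). It lay between 34.5 and 38.1 FPKM in CTR and between 19.2 and 29.2 FPKM in dKO libraries, so each dKO library was below each CTR library.

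The major chaperones did not pass the test. Hspa5 (ENSMUSG00000026864, chromosome 2 from 34661982 to 34668880, plus strand) encodes BiP, the ER member of the HSP70 family. It was 198, 188, 216, 156, 259 and 345 FPKM in CTR replicates 1 to 6 and 369, 223, 592, 220, 233 and 240 FPKM in dKO replicates 1 to 6. Thus 4 dKO libraries lay within the range of the CTR libraries, dKO replicates 1 and 3 were above it, and the log2 fold change was 0.40 (standard error 0.25, limma adjusted p = 0.2). Hsp90b1, the ER member of the HSP90 family, lay between 84.0 and 124 FPKM in CTR and between 112 and 232 FPKM in dKO libraries (log2 fold change 0.32, standard error 0.17, limma adjusted p = 0.13). Hyou1, the large HSP70-like exchange factor, changed by 0.13 (standard error 0.22) and Dnajc3, which inhibits PERK, by −0.06 (standard error 0.13), with limma adjusted p = 0.63 and 0.7. The ratio of Calr to Hspa5 within a library lay between 0.516 and 1.36 in CTR and between 1.09 and 2.11 in dKO MLECs, where the lowest ratio was that of dKO replicate 3.

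**Figure D2:**
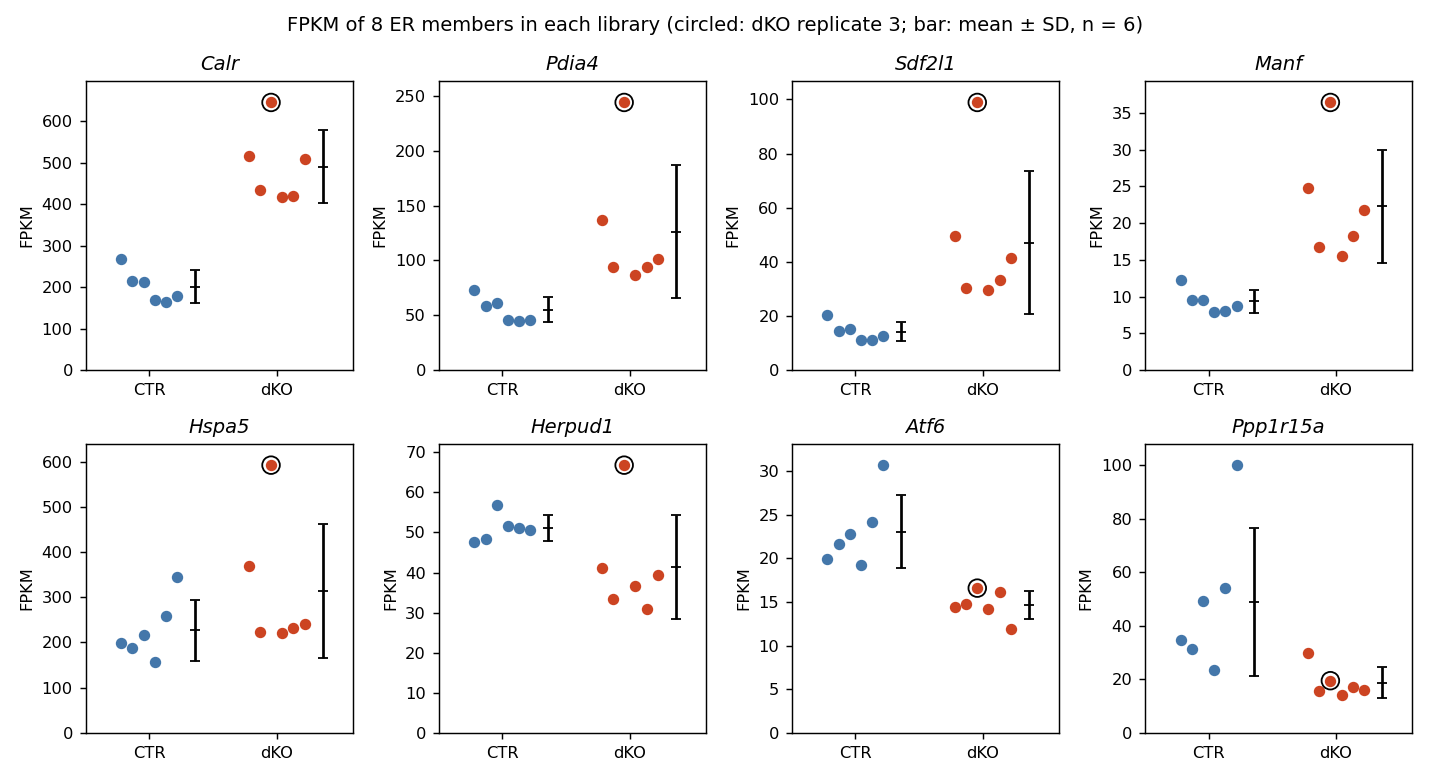
FPKM of 8 ER members in each CTR library (blue) and dKO library (red), with a bar for mean ± SD (n = 6 per group) and a ring around dKO replicate 3. Calr, Pdia4, Sdf2l1 and Manf do not overlap between groups, Hspa5 overlaps in 4 dKO libraries, Herpud1 is below CTR in all dKO libraries but the ringed 1, and the lower groups are dKO for Atf6 and Ppp1r15a.

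Of the 8 tested genes of ER-associated degradation, 2 rose, 1 fell and 5 were not called, against 20.4% higher and 32.6% lower among all tested genes. Syvn1, the ubiquitin ligase HRD1, lay between 6.99 and 8.56 FPKM in CTR and between 9.43 and 16.5 FPKM in dKO libraries (log2 fold change 0.50, standard error 0.11, limma adjusted p = 0.0023). Its partner Sel1l lay between 32.0 and 33.4 FPKM in CTR and between 27.0 and 52.8 FPKM in dKO libraries (log2 fold change 0.08, standard error 0.12, limma adjusted p = 0.58). The lectin Os9, which brings glycoproteins to this ligase, changed by 0.11, and the mannosidase-like genes Edem1 and Edem2 by −0.03 and 0.17, with overlapping groups and limma adjusted p = 0.42, 0.85 and 0.17.

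The derlins, membrane proteins of the retrotranslocation channel, moved apart. Derl1 lay between 65.2 and 83.2 FPKM in CTR and between 43.7 and 61.0 FPKM in dKO libraries, each dKO library below each CTR library, and its log2 fold change was −0.54 (standard error 0.08, limma adjusted p = 0.00017). Derl2 lay between 6.30 and 7.30 FPKM in CTR and between 7.31 and 9.69 FPKM in dKO libraries (log2 fold change 0.22, standard error 0.07, limma adjusted p = 0.02). The groups nearly touched, and the call was lost with rescaling to TPM (adjusted p = 0.054). Derl1 was the more abundant of these derlins per length in both groups.

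Derl3, a derlin of secretory tissues, was read from 5, 10, 8, 10, 6 and 3 fragments in CTR replicates 1 to 6. In dKO replicates 1 to 6 it was read from 97, 16, 444, 11, 8 and 3 fragments, or 3.14, 0.455, 12.7, 0.308, 0.229 and 0.0906 FPKM. Only dKO replicates 1 and 3 exceeded 1 FPKM, and the difference between the groups did not pass an exact permutation test (two-sided p = 0.0996, without adjustment).

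Herpud1, which joins the ligase to its clients and is a target of ATF6, lay between 47.6 and 56.9 FPKM in CTR libraries. It was 41.1, 33.5, 66.8, 36.7, 30.8 and 39.3 FPKM in dKO replicates 1 to 6. Replicate 3 was above all CTR libraries and the other 5 were below them, and the log2 fold change of −0.34 (standard error 0.15) did not pass the test (limma adjusted p = 0.065). Without dKO replicate 3 it was −0.49 (standard error 0.08, limma adjusted p = 0.00046).

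The translocon, the channel through which proteins enter the ER, was represented by 2 subunits. Sec61a1, the pore, fell by 0.26 on the log2 scale (limma adjusted p = 0.0059), from between 31.9 and 41.4 FPKM in CTR to between 27.7 and 32.6 FPKM in dKO libraries, with 5 of 6 dKO libraries below all CTR libraries. Sec61b, a small subunit, changed by −0.04 (standard error 0.08, limma adjusted p = 0.7).

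Both regulatory subunits of the eIF2α phosphatase, which restores translation after PERK or another kinase has acted, were lower. Ppp1r15a (ENSMUSG00000040435, chromosome 7 from 45172340 to 45175692, minus strand) encodes GADD34, the inducible subunit and a target of ATF4 and CHOP. It lay between 23.5 and 100 FPKM in CTR (median 41.9) and between 14.1 and 29.9 FPKM in dKO MLECs (median 16.6). The log2 fold change was −1.22 (standard error 0.29, limma adjusted p = 0.0036), 5 of 6 dKO libraries were below all CTR libraries, and without CTR replicate 6, which held the highest value, it was −0.98 (limma adjusted p = 0.0034). Ppp1r15b, the constitutive subunit, lay between 27.7 and 37.3 FPKM in CTR and between 17.2 and 23.8 FPKM in dKO libraries, without overlap (log2 fold change −0.56, standard error 0.10, limma adjusted p = 0.00037).

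Library dKO replicate 3 stood apart in these genes. It held the highest dKO value for 30 of 35 members, and for 15.9% of all tested genes. Its FPKM was over 1.5 times the median of the other 5 dKO libraries for 15 of 34 tested members (44.1%) and for 5.17% of all tested genes. The ratio was 2.97 for Sdf2l1, 2.88 for Creld2, 2.58 for Pdia4, 2.54 for Hspa5 and 2.07 for Hsp90b1. It was lower for Calr (1.49), P4hb (1.12), Canx (1.15) and the sensors (at most 1.22). The summed FPKM of the 35 members was 4032 in this library, between 2496 and 2908 in the other dKO libraries and between 1880 and 2219 in CTR libraries.

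Macrophage markers were also highest in this library: it held the highest dKO value for 10 of 12, with a summed level of 5395 FPKM, where no other dKO library passed 3505 FPKM. Among plasma cell genes, Igkc was read from 20 fragments in it and from 4 to 82 in the other dKO libraries, Jchain from 14 and from 5 to 17, and Mzb1 from 2 and from at most 2. Tnfrsf17 was above 0 in this library alone, at 0.14 FPKM. The part of either cell type in its ER values was not tested.

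Without dKO replicate 3, 15 members were higher and 9 were lower, against 19.5% and 30.0% of all tested genes. Each of the 22 members called over all libraries was called again in its direction, and Dnajc3 (−0.19, limma adjusted p = 0.033) and Herpud1 were added as lower. For Hspa5 the log2 fold change was then 0.20 (limma adjusted p = 0.42), for Hsp90b1 0.16 (limma adjusted p = 0.22) and for Hyou1 −0.03 (limma adjusted p = 0.89).

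**Figure D3:**
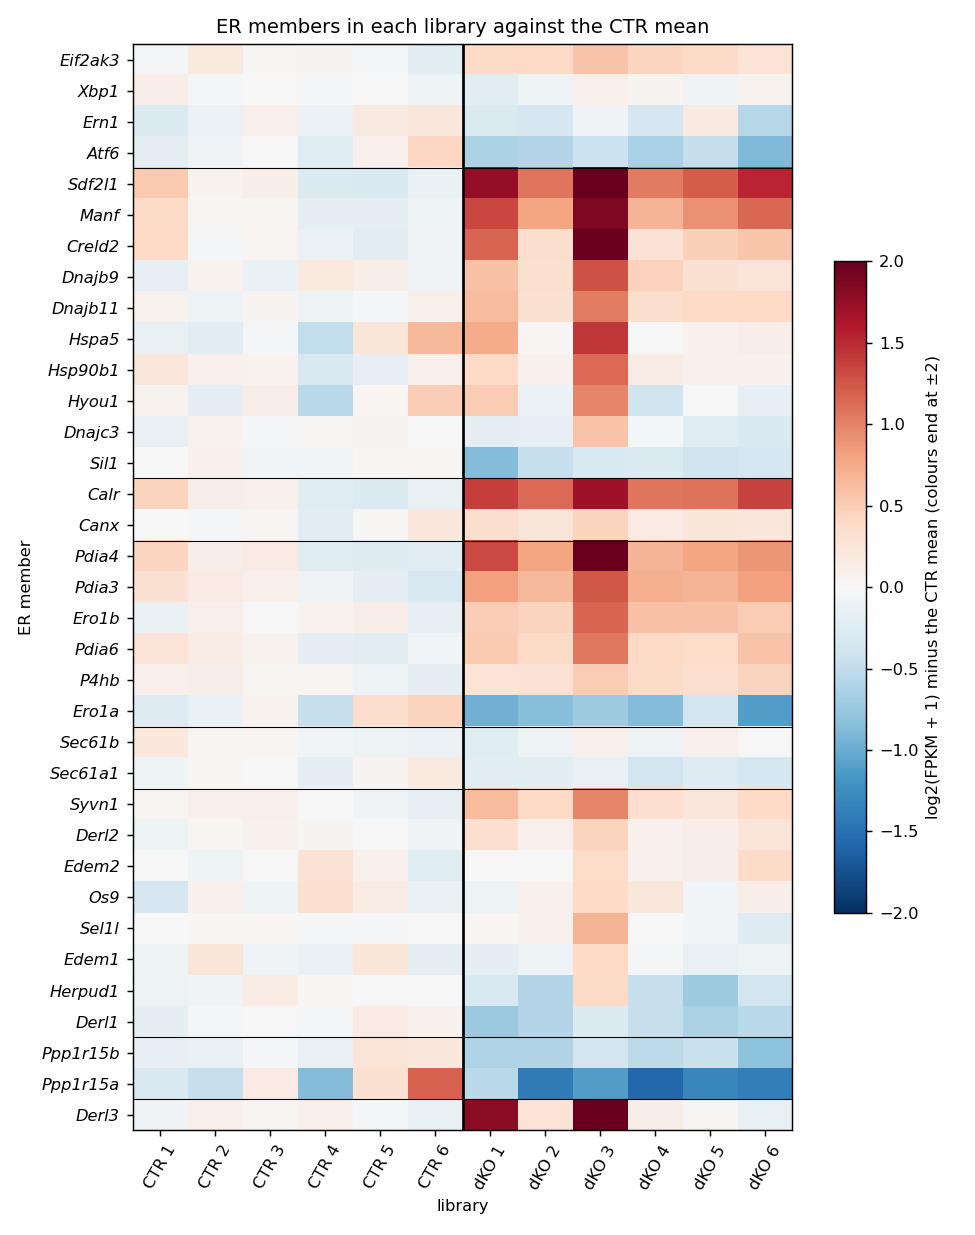
Difference of each library from the CTR mean, on log2(FPKM + 1), for the 35 ER members (rows, grouped by role) in 6 CTR and 6 dKO libraries (columns); colours end at ±2, which dKO replicate 3 passes for some genes. The column of dKO replicate 3 is the darkest red among chaperones, with 592 FPKM of Hspa5 and 68.7 FPKM of Creld2, and dKO replicate 1 follows for Hspa5, at 369 FPKM, and Derl3.

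By arm, 6 of 12 genes of the ATF6 arm were higher and 0 were lower, against 20.4% and 32.6% of all tested genes, with a median log2 fold change of 0.47. The 6 were Sdf2l1, Calr, Manf, Pdia4, Creld2 and Pdia6, and the others were Hspa5, Hsp90b1, Hyou1, Sel1l, Xbp1 and Herpud1. Of 11 genes of the XBP1 arm, 5 were higher (45.5%) and 2 were lower (18.2%), with a median of 0.17. Those higher were Ero1b, Dnajb9, Dnajb11, Syvn1 and Derl2, and those lower were Derl1 and Sec61a1. Of the 11 tested members in neither arm, 4 were higher (36.4%) and 5 were lower (45.5%), with a median of −0.24. Without dKO replicate 3 the medians were 0.32, 0.12 and −0.27, and the lower genes numbered 1, 3 and 5. The difference between the arms was not tested.

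Most genes of the amino-acid response fell. These genes were listed with a lower response in these data already known, so their counts describe the list and are not a test of it. Of its 48 genes, all of which were tested, 43 were lower (89.6%, against 32.6% of all tested genes) and 1, Gdf15, was higher (log2 fold change 0.46, limma adjusted p = 0.021), with a median of −1.02. Of the 48, 41 had each dKO library below each CTR library, against 16.1% of all tested genes. Atf4 lay between 234 and 391 FPKM in CTR and between 151 and 222 FPKM in dKO MLECs (log2 fold change −0.85, limma adjusted p = 0.00012). The largest falls without overlap were those of Cth, an enzyme of cysteine synthesis (−2.90), the transporter Slc7a5 (−2.44), Trib3 (−2.44) and the folate enzyme Aldh1l2 (−2.42).

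Asns, the asparagine synthetase, fell from between 95.2 and 190 FPKM to between 31.2 and 37.7 FPKM (limma adjusted p = 4.9e-07). Chac1, which degrades glutathione, fell by 2.01, from between 19.4 and 33.2 FPKM to between 4.84 and 7.62 FPKM (limma adjusted p = 4.9e-07). Ddit3, which encodes CHOP and is a target of both ATF4 and ATF6, lay between 47.0 and 172 FPKM in CTR and between 33.6 and 90.4 FPKM in dKO libraries, and its log2 fold change of −0.71 (standard error 0.32) did not pass the test (limma adjusted p = 0.075). Atf3 (−0.18), Cebpb (−0.19) and Slc38a2 (−0.20) were not called either. The summed FPKM of the 48 genes lay between 2250 and 3894 in CTR and between 1377 and 1536 in dKO libraries, with 1508 in dKO replicate 3. This library held the highest dKO value for 16 of the 48 (33.3%), followed by dKO replicate 1 with 10.

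The element of these genes, TGATGNAA, was present in 11 of 48 of their promoters (22.9%), in 2 of 34 member promoters, those of Ppp1r15b and Herpud1, and in 2.36% of all. The ER stress element was present in 0 of the 48. The stretch before Chac1 is shown for contrast with those above.
Chac1, chr2:119181525-119181542, plus strand: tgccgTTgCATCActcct

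**Figure D4:**
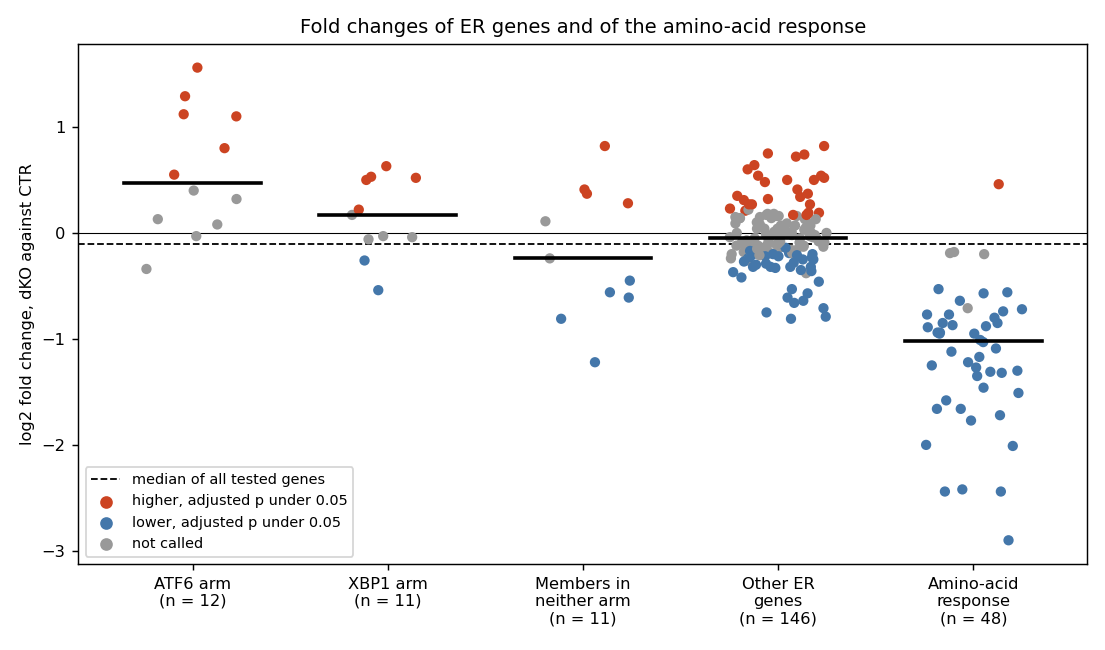
Log2 fold change (dKO against CTR) of each tested gene of the ATF6 arm, the XBP1 arm, the members in neither arm, the other ER genes and the amino-acid response, with a thick line at each median and a dashed line at the median of all tested genes (−0.10). The medians are 0.47, 0.17, −0.24, −0.05 and −1.02, and red points (higher) are in the first 4 groups apart from Gdf15.

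The wider ER machinery gave calls in both directions. Of 146 other ER genes tested, 27 were higher (18.5%, against 20.4% of all tested genes) and 38 were lower (26.0%, against 32.6%), with a median log2 fold change of −0.05. With median-of-ratios scaling the split was 40 higher and 18 lower, and with rescaling to TPM it was 18 higher and 47 lower of 149, so its direction depends on the scaling. For the members these scalings gave 15 higher and 7 lower, and 14 higher and 8 lower. The largest rises without overlap were those of Eif2ak2, the kinase PKR (0.82), the apoptosis gene Bax (0.75), Ost4, a subunit of the oligosaccharyltransferase (0.74), and Fkbp2, a prolyl isomerase (0.72). The largest falls were those of Erlin1 (−0.81), Krtcap2, another subunit of that transferase (−0.71), Sec61a2, a copy of the translocon pore (−0.66), and Tmbim6, an ER membrane protein that limits cell death (−0.64). By sublist, 7 of 45 other chaperones and disulfide genes were higher and 14 lower, 7 of 39 degradation genes were higher and 7 lower, 7 of 35 translocation and glycosylation genes were higher and 7 lower, and 6 of 27 sensors and processing genes were higher and 10 lower.

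Some members share exon bases with neighbours, and the strand setting of the counting is not given in the sources used here. Hspa5 shares 2457 bases with Rabepk and Xbp1 shares 1526 bases with Ccdc117, on opposite strands, and these neighbours had mean levels of 5.57 and 7.45 FPKM. Derl2 shares 394 bases with Mis12, which had a mean of 13.7 FPKM and did not pass the test (log2 fold change −0.10, limma adjusted p = 0.51). The part of these shared bases in the values of Hspa5, Xbp1 and Derl2 was not tested. Near-identical copies were found in the annotation for Derl1, Ero1b, Ppp1r15b, Sec61a1 and Sec61b, and those with values in the table had at most 2.5 FPKM on average.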

How the data were processed

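RNA of 12 MLEC libraries, 6 CTR and 6 dKO, was analysed from a single table of FPKM as the authors deposited it. Per the methods of the study, reads were trimmed with Trimmomatic, mapped to mm39 with STAR, reduced to uniquely aligned reads and mapped again, and the authors used DESeq2 for differential expression; the submitters' processing notes name Bowtie2 2.2.3, HISAT2 2.1.0 and TopHat2. The counting program, its annotation and its strand setting are not given in the sources used here. The extraction text of the labels speaks of retinas, whereas the labels give lung endothelial cells. Columns of the table named after tamoxifen were taken as dKO, since those named CTR match the control titles. Of 28689 genes, 27706 matched GENCODE annotation of GRCm39, which is the same build, by Ensembl identifier. The 35 members and all gene lists were chosen with earlier results of these data known.

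FPKM are not counts, so log2(FPKM + 1) was tested with limma 3.58.1 in R 4.3.3 (lmFit, eBayes with a trend, two-sided, no covariates), with Benjamini-Hochberg adjustment over 12467 genes, those that reached 1 FPKM in 6 or more of the 12 libraries. A gene was called at an adjusted p under 0.05. Whole fragments were recovered for all 28689 genes (100% of values within 0.02 of a whole number, with gene lengths searched freely, of which 9335 equal annotated exon lengths) and served for depth, for Derl3 and for limma-voom as an alternative. All members were named, with the 4 largest rises and 4 largest falls without overlap of the 2 other lists and Atf4, Ddit3, Trib3, Asns and Chac1. Promoters were read from GRCm39 around the start of the canonical transcript, and copies were sought with BLAST 2.17.0 (at least 95% identity over at least 150 bases and 50% of the copy). Other steps ran in Python 3.11.15 with pysam 0.24.0, pandas 2.3.3, NumPy 2.4.6, Matplotlib 3.10.9 and numba 0.67.0, and the steps were tested on simulated data.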

Additional observations from a re-analysis of the deposited data

Results flagged for a closer look

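For 35 members, Sp1 and Sp3, 74 groups of 6 libraries were examined, in CTR and in dKO MLECs. Of these, 15 held a library whose gap to its nearest neighbour, relative to the range of the group, was over the 95% critical value of Dixon. Chance alone flags about 1 in 20 groups if values are normally distributed. The rate of flags over all tested genes is not given here. Of these 15, 12 were the highest dKO value and came from dKO replicate 3. They were Hsp90b1 (232 FPKM), Dnajb9 (40.7 FPKM), Dnajc3 (69.1 FPKM), Sdf2l1 (98.9 FPKM), Pdia3 (412 FPKM), Pdia4 (244 FPKM), Pdia6 (185 FPKM), Ero1b (6.29 FPKM), Herpud1 (66.8 FPKM), Edem1 (44.7 FPKM), Sel1l (52.8 FPKM) and Derl3 (12.7 FPKM). In dKO replicate 1, Sil1 was lowest of its group (19.2 FPKM) and Ppp1r15a was highest (29.9 FPKM). In CTR replicate 1, Manf was highest of its group (12.3 FPKM). The genes share their libraries, so these flags are not independent of each other, and no cause was tested.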

How the results depend on the processing

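Across 10 other settings and 12 fits that each left out 1 library, members called higher numbered 14 or 15 and members called lower 7 to 9 (15 and 7 to 9 with a library left out), and no called member changed sign. Calls were lost for Canx with quantile normalization (0.11, adjusted p = 0.24), for Derl2 with rescaling to TPM (0.20, adjusted p = 0.054) and for Ero1b, which was not tested with a filter of at least 5 FPKM. Ern1 was gained as lower without dKO replicate 5 (−0.32, adjusted p = 0.032), Herpud1 with TPM, with quantile normalization and without dKO replicate 3, and Dnajc3 without dKO replicate 3. Members that were not called changed sign: with median-of-ratios scaling Dnajc3 was 0.03, Xbp1 0.066, Edem1 0.064 and Sec61b 0.055, and with upper-quartile scaling Xbp1 was 0.00. With a library left out, values ranged from −0.033 to 0.241 for Hyou1, −0.053 to 0.012 for Xbp1, −0.111 to 0.020 for Edem1, −0.036 to 0.153 for Sel1l and −0.067 to 0.004 for Sec61b. Other ER genes called lower were 38 and became 18 with median-of-ratios scaling, and 28 to 40 with a library left out. Amino-acid response genes called lower numbered 40 to 44, and 42 to 44 with a library left out. Over all genes, 4065 lower calls became 2514 with the filter of at least 5 FPKM, where 7891 genes were tested. Sp3 ranged from −0.18 to −0.11 with a library left out and passed the test without CTR replicate 6 (−0.18, adjusted p = 0.033), and Sp1 ranged from −0.98 to −0.89. The median of all tested genes lay between −0.155 and −0.013 over these settings.

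With the replicate number as a block, 15 members were higher and 8 lower, Herpud1 being added (adjusted p = 0.032). Same-numbered libraries did not deviate together in each pair (correlations 0.436, 0.156, −0.045, 0.565, 0.01 and −0.108 for numbers 1 to 6), and only number 4 correlated best with its own number from both sides. The numbers were therefore not taken as pairs, and whether same-numbered libraries share a litter or batch is not given in the labels. The depth is known only through recovered fragments, and genes under 1 FPKM such as Derl3 rest on few fragments. Markers of several cell types differed between the groups, and cell composition itself was not measured.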
